A study of Mus musculus with 20 samples.

Results

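The solute carriers are the membrane proteins that move small molecules across the plasma membrane and the membranes of organelles. Their genes were taken here by name, as those with a symbol of the form Slc, a family number, the letter a and a member number, without Slc2a1, Slc2a3 and Slc38a4. Of 18193 genes on the array, 317 had such a symbol, and 151 were kept because the highest of their 10 group means was at least 6 on the deposited log2 scale. Where a gene had several probe sets (the sets of short probes that each give 1 value per array), the one with the highest mean over the 20 arrays stood for the gene, which concerned 92 of the 151, and 59 had 1 probe set. The members were thus chosen by measured values, and a gene that reached 6 in only some groups had to differ between groups to be kept. In all, 111 members reached 6 in all 10 groups and 40 in only some.

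Solute carriers are numbered in families by sequence, and most families share a kind of cargo. Amino acid carriers feed protein synthesis and growth signalling, metal carriers set the zinc, iron and copper content of cells and organelles, and mitochondrial carriers exchange nucleotides, phosphate and metabolites between mitochondria and cytosol. Pluripotent cell states are known to differ in their use of glucose, glutamine and mitochondria, for which these carriers provide the routes.

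RNA was measured on 20 arrays, 2 in each of 10 groups, which crossed 5 male mouse embryonic stem cell lines of C57BL/6;129 background with 2 stages. All lines, the parental line included, carried the reporters Blimp1-mVenus and stella-ECFP and the doxycycline-dependent activator Rosa26-rtTA. The BP14A line, called the 3-factor line here, also carried piggyBac transgenes for Avi-Blimp1 (Blimp1 is the protein of Prdm1), 3xFLAG-Prdm14 and V5-Tfap2c, each driven by a tetO-mCMV promoter. The B, P14 and A lines, called the Blimp1, Prdm14 and Tfap2c lines, carried 1 of these each. The first stage was epiblast-like cells (EpiLCs, which resemble the epiblast soon after implantation) after 36 h of differentiation. The second, day 1, was aggregates of EpiLCs after 24 h in GK15 medium with doxycycline at 1.5 µg/ml. The study asked which genes each of these regulators of the germ cell fate alters. Each transgenic line was 1 clone, so clone and transgene cannot be told apart. All day 1 aggregates were treated with doxycycline, those of the parental line included.

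Array medians lay between 4.59 and 4.86, and replicate arrays correlated across the members at Pearson r between 0.9916 and 0.9954. That correlation is across genes, which are not independent replicates, and precision is limited by having 2 arrays in a group. The 7 markers fixed for EpiLCs and epiblast were all above the filter level of 3.95 in every group, with a mean between 10.07 in the 3-factor line on day 1 and 11.56 in the Prdm14 line's EpiLCs. Of the markers of primitive endoderm, 3 of 8 were above that level in every group and the mean ranged from 4.28 to 4.48; of trophectoderm, 4 of 7, from 5.08 to 5.76; of fibroblasts, 5 of 8, from 4.69 to 5.31. No marker was at 0 in all groups. Single markers moved more than these means. On day 1 Pou3f1 stood at 11.68 in the parental line, against 6.805 and 8.37 in the 3-factor and Prdm14 lines. Dnmt3b stood at 13.21 against 9.87 and 11.14. Otx2 and Fgf5 were also lower in those lines, Sox2 was higher (10.705 against 12.545 and 12.495), and Pou5f1 and Utf1 differed little. The Blimp1 line moved too on day 1. Its Otx2 stood at 9.185, against 10.675 in the parental and 10.07 in the Prdm14 line, and its Fgf5 at 9.605, against 10.59 and 10.205. Its Sox2 stood at 11.83, Utf1 at 9.46 and Pou5f1 at 12.155, against 10.705, 10.13 and 12.49 in the parental line. Its Pou3f1 (11.07) and Dnmt3b (12.975) lay nearer the parental values. In the parental line Tagln went from 6.65 in EpiLCs to 9.51 on day 1 and Krt8 from 7.26 to 9.18. Thy1 stood on day 1 at 7.07 in the parental and 7.06 in the Blimp1 line, against 4.03 and 4.44 in the 3-factor and Prdm14 lines, and Krt18 at 10.46 in the parental line against 8.71 and 8.995 in those 2 lines. The part of these markers in the results was not tested. All lines are labelled male, but the Y-linked gene Eif2s3y had a mean of 9.49 in parental EpiLCs, 1.68 in those of the Blimp1 line and 4.61 in those of the Prdm14 line. In the EpiLCs of the 3-factor and Tfap2c lines it was 7.26 and 7.9. The brightest probe set of Uty, also Y-linked, gave 8.23, 8.11 and 8.405 in parental, 3-factor and Tfap2c EpiLCs. It gave 2.615 and 4.43 in those of the Blimp1 and Prdm14 lines. The brightest Tfap2c probe set gave 6.34 in the parental line on day 1 and 5.94 in the Tfap2c line, against 11.57, 9.60 and 10.81 in the 3-factor, Blimp1 and Prdm14 lines, so the Tfap2c transgene was not seen in its own line at this probe set. The Prdm14 probe set gave 3.51 in the Prdm14 line on day 1 and 3.63 in the parental line, both below the filter level. Prdm1 gave 6.36 in the Blimp1 line, less than in the Prdm14 line (7.31) and the 3-factor line (8.67), and 4.96 in the parental line. Whether these probes can read the transgenes was not tested. In bulk RNA, fewer cells of a type and less RNA per cell cannot be told apart.

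A call needed a limma p under 0.05 after Benjamini-Hochberg adjustment over all 14011 genes tested, together with a log2 change of 1 or more in size. Each error of a log2 change is the standard error (SE) from limma, and "rose" and "fell" are used for changes past the adjusted p. A call favours arrays that do not overlap between the groups compared, so such separation is no further support for a called gene. The 151 members fell into 42 families, grouped here by their main cargo. The 34 mitochondrial carriers formed the largest class, of 44 on the array, followed by 23 of 33 metal carriers, 21 of 41 amino acid carriers, 15 of 44 carriers of ions and pH, 12 of 21 of vitamins and lipids, and 11 of 45 of carboxylates and organic ions. Of sugar carriers 9 of 28 were kept, of nucleoside and nucleotide sugar carriers 9 of 10, of phosphate and vesicular carriers 7 of 20, of the neurotransmitter and amino acid family SLC6 6 of 21, and of peptide and urea carriers 1 of 7, and 3 members had no class. The symbol pattern also took Slc4a1ap, Slc7a6os and Slc9a3r1, which are named after neighbouring or bound carriers and are not carriers themselves. Slc7a6os is counted above in the amino acid class and the other two in that of ions and pH. The amino acid counts given from here on are of the 20 carriers without Slc7a6os.

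Just above the level of 6 stood Slc17a9 (6.03), Slc27a5 (6.04), Slc30a3 (6.04) and Slc16a10 (6.04), by their highest group means. Just below it stood Slc5a6 (5.97), Slc4a3 (5.94), Slc7a11 (5.93) and Slc15a2 (5.92). The range of the 10 group means had a median of 0.69 over the members and of 0.60 over the 9865 genes that reached the same level. It was at least 1 for 46 members and at least 2 for 10. The widest range in each class belonged to Slc25a24 among mitochondrial carriers (3.67), Slc6a15 in the SLC6 family (3.02), Slc5a4b among sugar carriers (2.45), Slc7a1 among amino acid carriers (2.35), Slc40a1 among metal carriers (2.16), Slc22a23 among organic ion carriers (2.14), Slc24a1 among ion carriers (2.11), Slc34a2 among phosphate carriers (2.03), Slc27a2 among lipid carriers (1.92), Slc29a1 among nucleoside carriers (1.75) and Slc15a4 as the only peptide carrier kept (0.50). Among the members without a class it was Slc66a1 (1.06). In all, 22 members were called in at least 1 of the 5 contrasts formed by the parental stage change and the 4 day 1 lines against the parental line, 14.6%, against 13% of all genes and 13.4% of those at the members' level.

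**Figure D1:**
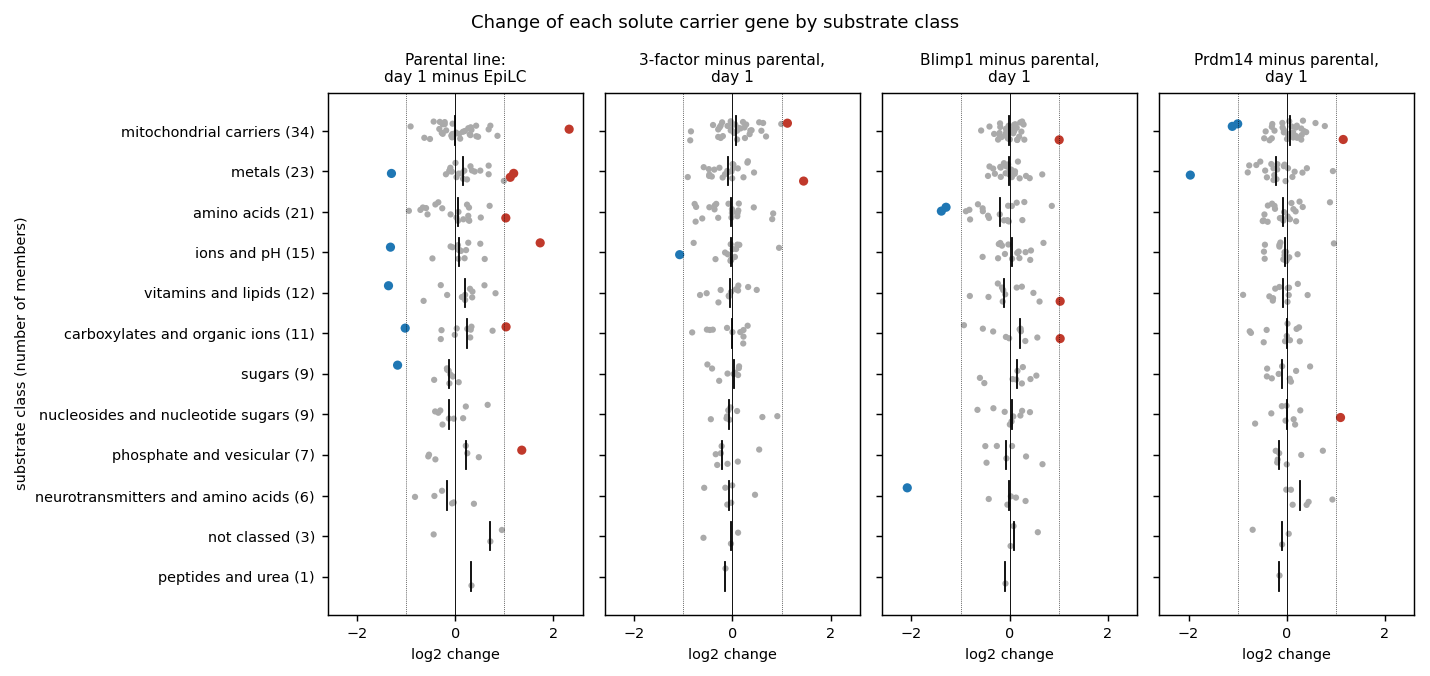
The log2 change of each of the 151 members is plotted along the x axis in 4 comparisons (panels), with the substrate classes and their numbers of members on the y axis. Each point is 1 gene, black bars are class medians, dotted lines mark a log2 change of 1 in size, red points are called higher and blue points called lower. The called genes were spread over several classes, with at most 2 in 1 class, direction and comparison.

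Between EpiLCs and day 1 of the parental line Slc25a24, Slc4a4 and Slc34a2 rose the most among the members, and Slc23a1, Slc24a1 and Slc39a4 fell the most. Of the members 7 were called higher on day 1, against 3.95% of all genes tested, and 5 were called lower, against 2.61%. Among the 111 members at 6 or above in every group, 2 were called, 1.8%, against 3.42% of the 8148 genes at that level, and the other called members were below 6 in at least 1 group, where the choice of members itself favours a difference.

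Slc25a24, a calcium-regulated mitochondrial carrier that exchanges ATP-Mg for phosphate, stood at 6.14 and 6.26 in the parental EpiLC arrays and at 8.45 and 8.59 on day 1. Its log2 change was 2.32 ± 0.15 (SE), with an adjusted p of 3.90e-07 from limma. It was the largest stage change among the members, and its arrays were low in the EpiLCs of all 5 lines and high on day 1 without overlap. Slc4a4, which couples sodium to bicarbonate import and so acts on cell pH, gave 5.64 and 5.53 in EpiLCs and 7.32 and 7.31 on day 1, a change of 1.73 ± 0.17 (adjusted p = 1.01e-05). The other probe sets of Slc4a4, all dimmer, gave smaller changes of 1.22, 0.73, 0.39 and 0.205. Slc34a2, a sodium-phosphate cotransporter, rose from 4.87 and 4.12 to 5.71 and 5.99, by 1.36 ± 0.34 (adjusted p = 0.00848). Both EpiLC arrays of each gene lay below both day 1 arrays, but the 2 EpiLC arrays of Slc34a2 were far apart, and its call ended under 4 of 13 alternative settings.

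The other 4 members called higher were Slc39a8, a zinc and manganese importer (1.19), Slc30a4, which loads zinc into vesicles (1.12), Slc22a23, an orphan of the organic ion family (1.04), and Slc38a1, a sodium-coupled glutamine carrier (1.03). A further probe set of Slc38a1, about as bright, changed by -0.16 in the same comparison, so the rise of Slc38a1 rests on 1 of its 2 probe sets. Other carriers of the same cargo went the other way: the glutamine carriers Slc1a5 and Slc38a2 fell by -0.57 and -0.41, and the phosphate importer Slc20a1, unlike Slc34a2, fell by -0.55.

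Slc23a1, a sodium-coupled ascorbate transporter, fell from 6.40 and 6.67 in parental EpiLCs to 5.26 and 5.09 on day 1, a change of -1.36 ± 0.13 (adjusted p = 9.82e-06). Slc24a1, a sodium-calcium exchanger that also moves potassium and is best known from rod photoreceptors, fell from 6.27 and 6.32 to 4.57 and 5.38, by -1.32 ± 0.25 (adjusted p = 0.00136). Slc39a4, a zinc importer, fell from 6.63 and 6.81 to 5.43 and 5.41, by -1.30 ± 0.14 (adjusted p = 1.79e-05). In all 3 genes both day 1 arrays lay below both EpiLC arrays. Slc5a4b of the sodium-glucose family (-1.18) and Slc22a7, an organic anion transporter (-1.02), were also called lower. Slc39a8 rose and Slc39a4 fell, so these members of the zinc importer family SLC39 changed in opposite directions. Slc25a24, Slc39a8, Slc30a4, Slc23a1, Slc39a4 and Slc5a4b kept their calls under all 13 alternative settings, while the call of Slc4a4 ended under 1, those of Slc22a23, Slc22a7 and Slc24a1 under 3 and that of Slc38a1 under 4.

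The 4 transgenic lines gave the same comparison, day 1 against each line's own EpiLCs, with group means that the parental log2 changes did not use. The arrays behind those means did enter the choice of members and the shared spread, so they are not an independent repeat. Slc34a2 and Slc5a4b, for example, were below 6 in both parental groups and were kept through a transgenic line (highest group means 6.52 and 6.055). How often other genes repeated a parental call or sign was not counted. All 12 members had the parental sign in every line. The call was met in the same direction for 6, 11, 7 and 8 of the 12 in the 3-factor, Blimp1, Prdm14 and Tfap2c lines. Over all members, 10, 23, 13 and 10 were called in these lines, against 10.6%, 9.67%, 8.01% and 6.09% of all genes. Slc25a24 rose in each line, by 1.29, 3.10, 1.55 and 2.0 in the 3-factor, Blimp1, Prdm14 and Tfap2c lines. Slc22a23 rose by 1.86 in the Blimp1 line, and in the 3-factor and Prdm14 lines its day 1 arrays stayed between 5.53 and 5.65, against 6.44 and 6.32 in the parental line.

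**Figure D2:**
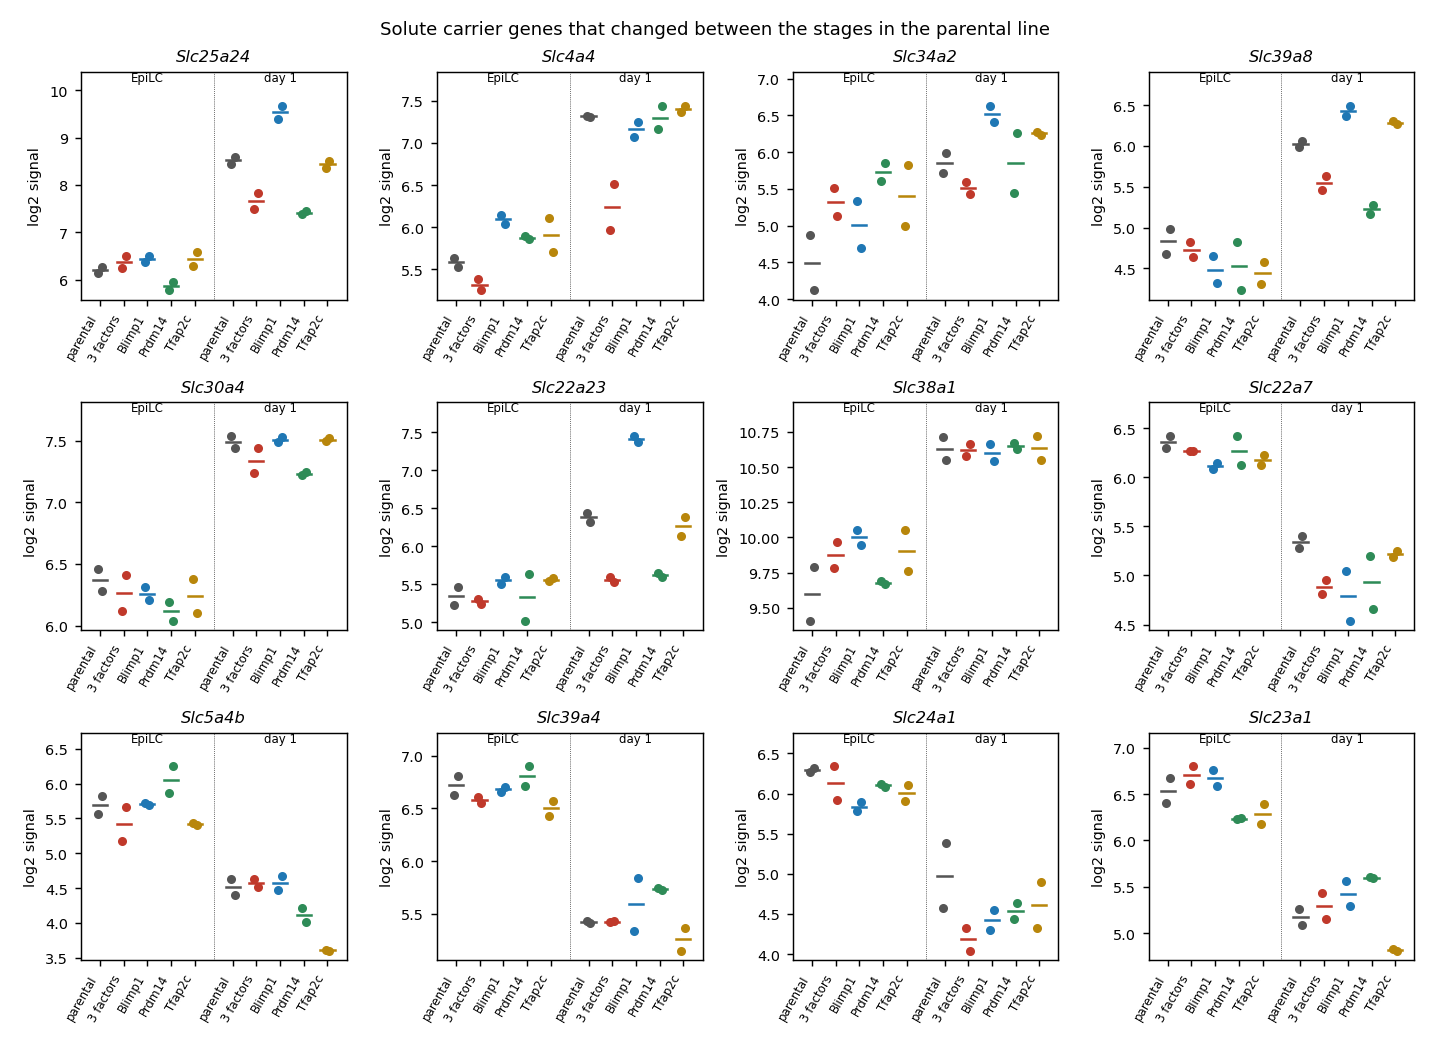
Log2 signal (y axis) of the 12 members called between the stages in the parental line, by line and stage (x axis). Points are single arrays, 2 per group, bars are group means, and each panel has its own y axis. In the parental line (grey) the EpiLC and day 1 arrays of every gene were separate, which the choice of genes by this call favours.

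Without the limit on size, 42 members rose with the stage (21.9% of all genes rose) and 28 fell (12.6% fell). Brighter genes passed the test more often, and among the genes at the members' level the shares were 28.7% and 15.1%, against 27.8% and 18.5% of the members. The split between the directions moved with the scaling: after quantile normalization it was 32 higher and 41 lower, and after centring each array on its median 31 and 22. By class, 9 of 23 metal carriers rose and 1 fell, with a median change of 0.16. Of 20 amino acid carriers 4 rose and 6 fell, and of 34 mitochondrial carriers 10 rose and 6 fell. The median over all members was 0.07, against 0.05 over all genes tested.

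In the 3-factor line on day 1 Slc39a14 and Slc25a4 were called higher than in the parental line, against 2.77% of all genes, and Slc4a4 was called lower, against 3.85%. These 3 were all the calls among the 151 members. Without replicate 1 of the parental day 1 arrays the count was 6.

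Slc39a14 imports zinc, iron and manganese. It gave 9.09 and 9.24 in the parental day 1 arrays and 10.68 and 10.55 in the 3-factor line, a change of 1.45 ± 0.08 (adjusted p = 5.24e-08). The arrays did not overlap, and its other 3 probe sets, all dimmer, gave 0.75, 1.70 and 1.56. Part of the difference was present before doxycycline: the EpiLC arrays stood at 8.76 and 8.95 in the parental line and at 9.48 and 9.40 in the 3-factor line, a difference of 0.59 (adjusted p = 0.0166). It was the only member to pass an adjusted p of 0.05 between the EpiLCs of any transgenic line and the parental line. The difference in stage change between the lines was 0.87 (adjusted p = 0.000148).

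Slc25a4, the ADP/ATP carrier of the inner mitochondrial membrane found mostly in heart and muscle, gave 11.58 and 11.52 in the parental line and 12.63 and 12.71 in the 3-factor line. The change was 1.12 ± 0.11 (adjusted p = 8.52e-06). The 2 other bright probe sets of the gene, with means of 11.44 and 11.30 over the groups, gave 0.97 and 1.11, and in the Prdm14 line Slc25a4 rose by 0.78. Slc4a4 gave 7.32 and 7.31 in the parental line and 5.97 and 6.51 in the 3-factor line, a fall of -1.08 ± 0.17 (adjusted p = 0.0004). Both arrays of the 3-factor line were below the parental ones, though far apart from each other, and the call ended under 3 of 13 settings. Dimmer probe sets of Slc4a4 gave -0.89, -0.61, -0.165 and 0.425. The calls of Slc39a14 and Slc25a4 were kept under all 13. Slc4a4, which rose with the stage in the parental line, thus stood closer to its EpiLC level in the 3-factor line, while the Blimp1 line (-0.16) and the Prdm14 line (-0.02) did not pass the test.

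Without the limit on size 21 members were higher in the 3-factor line (12.4% of all genes) and 32 were lower (15% of all genes). Among the genes at the members' level 15.7% were higher and 18.8% lower, against 13.9% and 21.2% of the members. Centring gave 16 and 24, and quantile normalization 25 and 28. Of the mitochondrial carriers 9 were higher and 3 lower, with a median of 0.08, and of the 20 amino acid carriers 2 were higher and 9 lower, with a median of -0.05. Of the metal carriers 3 were higher and 6 lower.

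In the Blimp1 line on day 1 the amino acid carriers Slc6a15, Slc7a1 and Slc1a3 fell the most, and Slc22a23, Slc27a2 and Slc25a24 rose the most. The Blimp1 line had 3 members called higher, against 1.38% of all genes, and 3 called lower, against 1.19%. The 3 called higher were near the limit of 1. All 3 were under it when arrays were centred on their medians, which gave 0 higher and 4 lower, and quantile normalization gave 2 and 3.

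Slc6a15, a sodium-coupled carrier of branched-chain and other neutral amino acids known mainly from neurons, gave 8.31 and 8.40 in the parental day 1 arrays and 6.13 and 6.41 in the Blimp1 line. The fall of -2.09 ± 0.13 (adjusted p = 9.07e-07) was the largest of any member in the 4 lines on day 1, and it kept its call under all 13 alternative settings. In the other lines the arrays of Slc6a15 stood at 8.11 or above, and in the EpiLCs of all lines between 7.91 and 8.27. Slc7a1, the widespread carrier of arginine and lysine, gave 9.0 and 8.47 in the parental line and 7.45 and 7.24 in the Blimp1 line, a change of -1.39 ± 0.23 (adjusted p = 0.00167). A second probe set of Slc7a1, about as bright, gave -1.58. Slc1a3, a glutamate and aspartate carrier, gave 7.59 and 7.68 against 6.47 and 6.21, a change of -1.30 ± 0.14 (adjusted p = 7.78e-05). Dimmer probe sets of Slc1a3 gave changes between -0.065 and -1.255. For Slc7a1 and Slc1a3 the arrays did not overlap, which the choice by a call favours. Their calls ended under 3 and 2 of the 13 settings, among them the mean of all probe sets of a gene.

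Slc22a23 gave 6.44 and 6.32 in the parental line and 7.45 and 7.37 in the Blimp1 line, a change of 1.03 ± 0.16 (adjusted p = 0.000889). Slc27a2, which takes up long fatty acids and joins them to coenzyme A, gave 10.10 and 10.27 against 11.26 and 11.17, a change of 1.03 ± 0.11 (adjusted p = 6.23e-05). Slc25a24 gave 8.45 and 8.59 against 9.39 and 9.67, a change of 1.01 ± 0.15 (adjusted p = 0.000622). In each of these 3 the Blimp1 arrays were above every other array of the series, but the calls of Slc27a2, Slc22a23 and Slc25a24 ended under 4, 5 and 6 of the 13 settings.

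At any size, 9 of the 20 amino acid carriers fell in the Blimp1 line, Slc7a1 and Slc1a3 among them, and 1 rose, with a median change of -0.31. Over all members 13 rose (8.43% of all genes) and 27 fell (8.79%). Among the genes at the members' level 10.8% rose and 11.4% fell, against 8.61% and 17.9% of the members. Centring gave 8 and 26, and quantile normalization 13 and 30. Slc7a5 and Slc3a2, the light and heavy chain of the main importer of large neutral amino acids, fell by -0.89 (adjusted p = 1.47e-05) and -0.65 (adjusted p = 0.000284). The 2 Blimp1 arrays of Slc7a5 stood at 9.47 and 9.46, below all other arrays of the series. Slc7a7, a light chain for cationic and neutral amino acids, fell by -0.82, Slc1a5, a glutamine carrier, by -0.81, and Slc7a3, a further cationic carrier, by -0.55. Slc1a4, which carries alanine, serine and cysteine, fell by -0.44 and Slc38a9, the lysosomal arginine sensor, by -0.42. Slc43a1, a facilitative carrier of branched-chain amino acids and phenylalanine, went the other way and rose by 0.86 (adjusted p = 0.00151).

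In the Blimp1 line's EpiLCs none of these amino acid carriers was called. Among all members, 0 were called by limma against the parental EpiLCs, with 16 at an unadjusted p under 0.05, and 0.0785% of all genes were called. In the parental line itself 6 of the 20 fell with the stage. Of the 9 that fell in the Blimp1 line, Slc1a5, Slc3a2, Slc7a1, Slc7a5 and Slc7a7 stood lower on day 1 than in EpiLCs in the parental line too, with differences of -0.57, -0.35, -0.95, -0.60 and -0.27, and were lower still in the Blimp1 line. The difference of Slc7a7 in the parental line did not pass the test (adjusted p = 0.0661). The other 4 were not lower with the parental stage at the probe sets used: Slc1a3 (0.70), Slc1a4 (0.29) and Slc7a3 (0.28) rose, and Slc38a9 differed by 0.24 (adjusted p = 0.192). For Slc1a3 the direction depended on the probe set, since dimmer ones gave 0.84, 0.465, 0.135, -0.70 and -1.125.

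**Figure D3:**
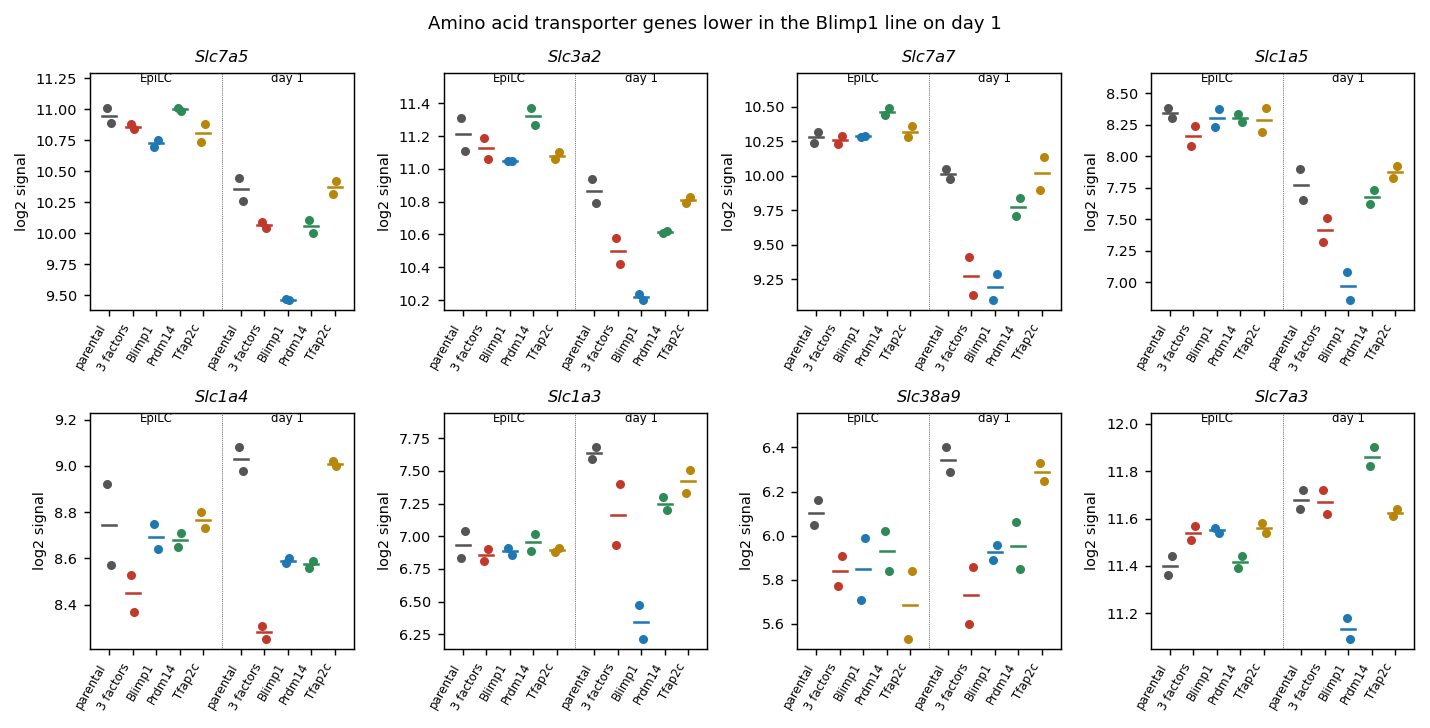
Log2 signal (y axis) of 8 of the 9 amino acid carriers that were lower in the Blimp1 line on day 1 at any size, by line and stage (x axis); Slc7a1 is plotted with the genes that separate the Prdm14 and Blimp1 lines. Points are single arrays, 2 per group, bars are group means, and each panel has its own y axis. The Blimp1 arrays (blue) on day 1 were the lowest for Slc7a5, Slc3a2, Slc1a5, Slc1a3 and Slc7a3, while the 3-factor arrays (red) were the lowest for Slc1a4.

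In the Prdm14 line on day 1 Slc40a1, Slc25a24 and Slc25a10 fell the most, and Slc25a36 and Slc29a1 rose the most. The line had 2 members called higher, against 2.18% of all genes, and 3 called lower, against 3.2%. Quantile normalization gave 4 and 2.

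Slc40a1, ferroportin, the only known exporter of iron from cells, gave 8.06 and 8.42 in the parental day 1 arrays and 6.19 and 6.36 in the Prdm14 line. The fall of -1.97 ± 0.13 (adjusted p = 5.03e-07) kept its call under all 13 alternative settings, and a second probe set gave -1.75. The arrays of Slc40a1 stood at 7.71 or above in every other group of the series. In the 3-factor line Slc40a1 fell by -0.48 (adjusted p = 0.0157), and in the Blimp1 line it differed by 0.04 (adjusted p = 0.895). Slc25a24 fell from 8.45 and 8.59 to 7.38 and 7.44, a change of -1.11 ± 0.15 (adjusted p = 0.000135), opposite in sign to its change in the Blimp1 line. Slc25a10, the mitochondrial carrier of malate and succinate, fell from 8.25 and 8.32 to 7.27 and 7.30, a change of -1.0 ± 0.09 (adjusted p = 8.59e-06). A dimmer probe set of Slc25a10 gave -0.05, and the call, which lies at the limit of size, ended under 6 of the 13 settings.

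Slc25a36, which moves pyrimidine nucleotides into mitochondria, gave 9.98 and 9.86 in the parental line and 11.09 and 11.05 in the Prdm14 line, a change of 1.15 ± 0.08 (adjusted p = 9.02e-07). Its other 2 probe sets gave 1.33 and 0.95. Slc29a1, the main equilibrative nucleoside transporter of the plasma membrane, gave 6.26 and 6.41 against 7.39 and 7.47, a change of 1.10 ± 0.13 (adjusted p = 7.27e-05). Both were also higher in the 3-factor line, Slc25a36 by 0.995 (adjusted p = 2.31e-06) and Slc29a1 by 0.92 (adjusted p = 0.000232). The parental day 1 arrays serve in both comparisons.

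Without the limit on size 19 members rose in the Prdm14 line (8.84% of all genes) and 26 fell (15% of all genes). Among the genes at the members' level 10.9% rose and 19.4% fell, against 12.6% and 17.2% of the members. Quantile normalization gave 26 and 21, and centring 11 and 23, so the balance of directions depended on the scaling. Of the 23 metal carriers 9 fell and 2 rose, with a median of -0.21. The zinc carriers of the Golgi, Slc30a6 and Slc30a7, fell by -0.44 and -0.77, and Slc39a14 rose by 0.94 (adjusted p = 2.8e-06). Of 34 mitochondrial carriers 6 rose and 6 fell.

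The Tfap2c line on day 1 had 0 members called by limma against the parental line, with 13 at an unadjusted p under 0.05, and 0.0285% of all genes were called. Its largest difference was in Slc5a4b, at 3.61 and 3.60 against 4.63 and 4.40, and did not pass the test. The typical size of change, as the median over the members without regard to sign, was 0.10 here, against 0.22, 0.20 and 0.22 in the 3-factor, Blimp1 and Prdm14 lines. No member was called in all 3 of the latter lines.

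Past the adjusted p at any size, 8 members moved in 1 direction in all 3 lines. The 2 that rose were 1.32% of the members, against 2.32% of all genes and 3.03% of those at the members' level. The 6 that fell were 3.97%, against 2.73% and 3.56%. Slc12a2, the sodium-potassium-chloride cotransporter that sets cell volume and chloride, rose by 0.95 in the 3-factor line, 0.69 in the Blimp1 line and 0.96 in the Prdm14 line. Its arrays on day 1 stood between 10.63 and 10.97 in these lines and between 9.74 and 10.01 in the parental and Tfap2c lines. Slc39a14 rose by 1.45, 0.67 and 0.94. The 6 that fell were Slc7a5, Slc3a2, Slc1a4, the aromatic amino acid carrier Slc16a10 and the zinc carriers Slc30a6 and Slc30a7. Slc16a10 fell by -0.52, -0.93 and -0.73. The 3 comparisons share the parental day 1 arrays, so a shift of those arrays would show in all of them.

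A direct comparison of the Prdm14 and Blimp1 lines on day 1 does not use the parental arrays, and it gave the largest differences among the members between lines on day 1. Slc6a15, Slc7a1, Slc29a1, Slc20a1, Slc25a36 and Slc19a2 were called higher in the Prdm14 line, against 2.5% of all genes. Slc25a24, Slc40a1, Slc27a2, Slc22a23, Slc43a1 and Slc39a8 were called lower, against 4.03%. Of these 12 calls, 11 were kept under all 13 alternative settings, and that of Slc19a2 ended under 3. Over all members 7.95% were called, against 7.11% of the genes that reached the same level. Among the 111 members at 6 or above in every group 8 were called, 7.21%, against 4.01% of the genes at that level. Against the parental line the same 111 gave 1.8%, 3.6% and 2.7% in the 3-factor, Blimp1 and Prdm14 lines. The genes at that level gave 3.94%, 1.17% and 3.14%.

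Slc6a15 had the widest gap, 6.13 and 6.41 in the Blimp1 line and 9.09 and 9.48 in the Prdm14 line, a difference of 3.02 ± 0.13 (adjusted p = 1.56e-08). Against the parental line it fell in one and rose by 0.93 (adjusted p = 0.000223) in the other. Slc7a1 gave 7.45 and 7.24 against 9.97 and 9.26, a difference of 2.27 ± 0.23 (adjusted p = 1.53e-05). Slc29a1 gave 5.79 and 5.57 against 7.39 and 7.47, a difference of 1.75 ± 0.13 (adjusted p = 1.21e-06). Slc20a1, a phosphate importer found in most cells, was higher by 1.21, and Slc19a2, a thiamine carrier, by 1.04. Slc27a2 was lower in the Prdm14 line, 11.26 and 11.17 against 9.37 and 9.22, a difference of -1.92 ± 0.11 (adjusted p = 1.07e-07). Slc25a24 differed by -2.12, Slc22a23 by -1.79, Slc43a1 by -1.34 and Slc39a8 by -1.21.

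For each of these genes the parental arrays lay between the 2 lines or beside one of them. Slc6a15, Slc7a1, Slc29a1, Slc20a1, Slc19a2, Slc25a24, Slc22a23, Slc27a2 and Slc43a1 passed the adjusted p against the parental line in both lines, with opposite signs, in comparisons that share the parental day 1 arrays. The fall of Slc20a1 in the Blimp1 line depended on the probe set: -0.47 at the one used, 0.05 at the next brightest and -0.39 at a dimmer one. For Slc40a1 and Slc25a36 the Blimp1 line did not pass the test against the parental line (adjusted p = 0.895 and 0.881).

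**Figure D4:**
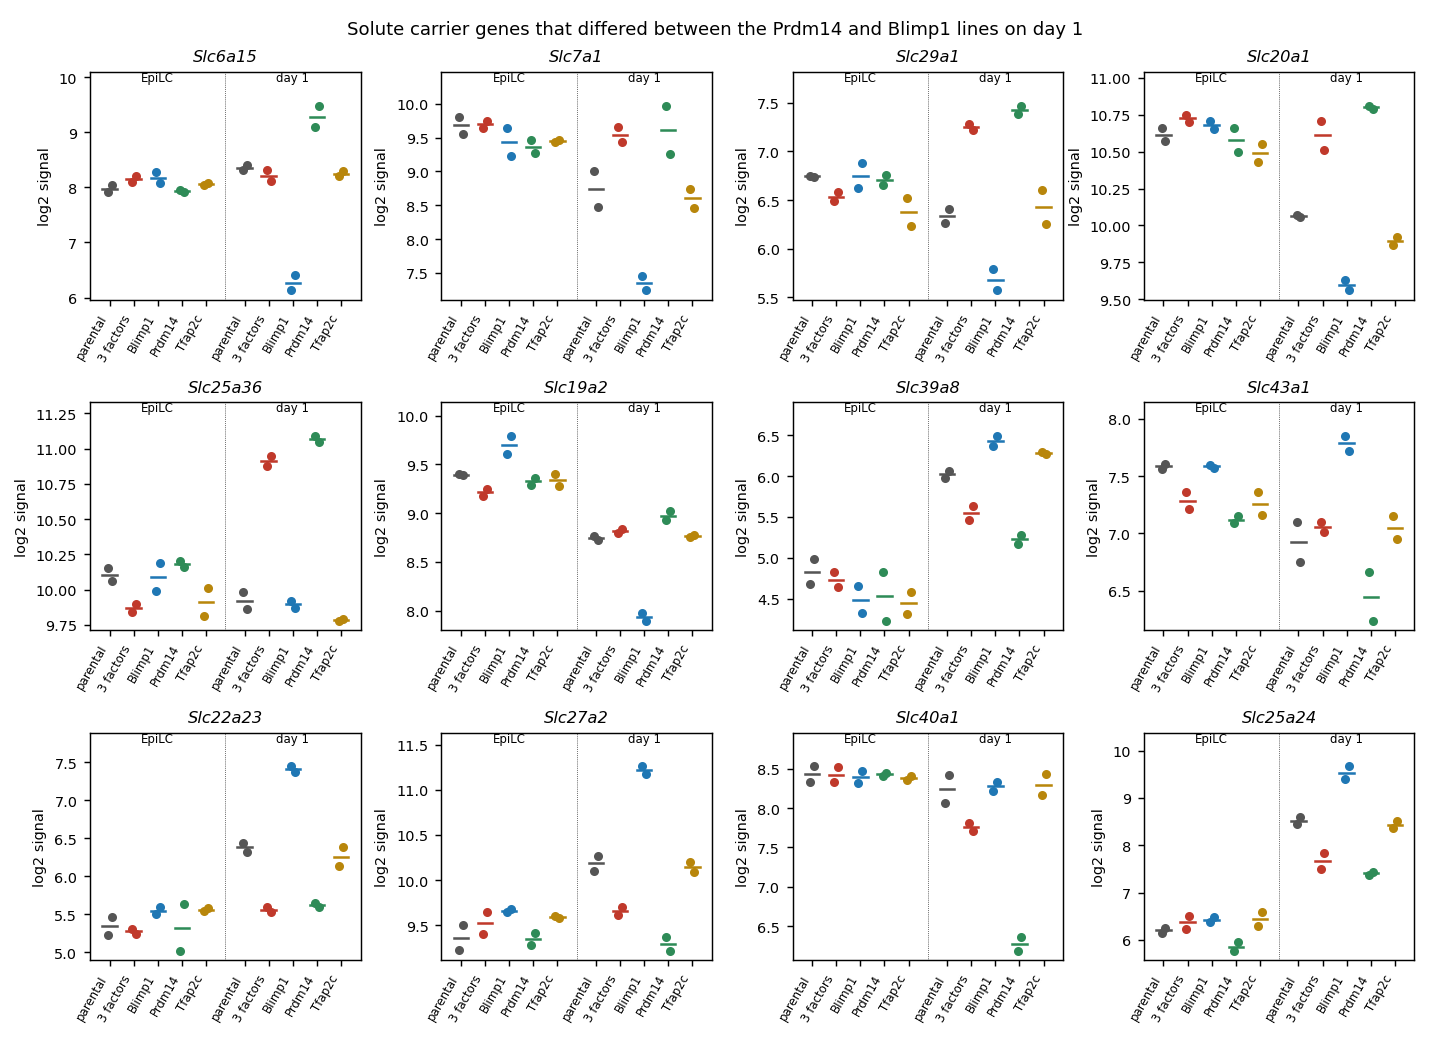
Log2 signal (y axis) of the 12 members called between the Prdm14 and Blimp1 lines on day 1, by line and stage (x axis). Points are single arrays, 2 per group, bars are group means, and each panel has its own y axis. The Prdm14 arrays (green) and Blimp1 arrays (blue) were separate on day 1 in every panel, which the choice of genes by this call favours. The EpiLC arrays of the lines lay closer together.

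The 3-factor line was also set against each of these lines on day 1. Against the Blimp1 line 9 members were called, and 6.47% of all genes. Slc7a1 (2.20), Slc6a15 (1.94), Slc29a1 (1.57) and Slc25a36 (1.02) were the largest on the higher side, and Slc25a24 (-1.87), Slc22a23 (-1.85), Slc27a2 (-1.56) and Slc34a2 (-1.01) on the lower side. The call of Slc34a2 ended under 9 of 13 settings, among them the fit with the replicate number as a block. Against the Prdm14 line 3 were called, and 1.04% of all genes: Slc40a1 (1.49), Slc6a15 (-1.08) and Slc4a4 (-1.06). This count fell to 1 without replicate 2 of the Prdm14 line on day 1 and to 0 when only the arrays of these 2 groups were fitted.

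The start regions of 4 of the 12 genes that separated the Prdm14 and Blimp1 lines are printed to show what the DNA before these starts holds. The sequences are the 250 bases before a RefSeq start in GRCm38.p6, 5′ to 3′ on the gene's strand, at chr9:97111042-97111291 (minus strand) for Slc25a36, chr1:164248796-164249045 (plus) for Slc19a2, chr2:126552774-126553023 (plus) for Slc27a2 and chr3:109122899-109123148 (plus) for Slc25a24. Capitals mark matches, on either strand, to the AP-2 palindrome GCCNNNGGC or to the Blimp1 core GNGAAAG.
Slc25a36: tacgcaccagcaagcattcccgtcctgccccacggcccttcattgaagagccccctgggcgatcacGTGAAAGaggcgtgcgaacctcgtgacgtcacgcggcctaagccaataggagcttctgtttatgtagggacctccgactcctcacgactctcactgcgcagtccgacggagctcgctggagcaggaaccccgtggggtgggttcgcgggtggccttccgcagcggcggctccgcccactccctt
Slc19a2: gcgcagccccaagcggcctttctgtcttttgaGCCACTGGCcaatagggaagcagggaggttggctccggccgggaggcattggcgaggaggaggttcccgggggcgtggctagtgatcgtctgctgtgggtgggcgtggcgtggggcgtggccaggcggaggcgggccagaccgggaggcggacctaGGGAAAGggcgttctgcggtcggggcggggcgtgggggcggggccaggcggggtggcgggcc
Slc27a2: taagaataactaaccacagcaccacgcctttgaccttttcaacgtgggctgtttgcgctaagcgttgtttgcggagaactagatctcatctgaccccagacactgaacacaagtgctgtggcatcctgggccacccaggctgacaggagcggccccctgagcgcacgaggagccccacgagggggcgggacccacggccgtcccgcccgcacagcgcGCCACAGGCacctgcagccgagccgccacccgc
Slc25a24: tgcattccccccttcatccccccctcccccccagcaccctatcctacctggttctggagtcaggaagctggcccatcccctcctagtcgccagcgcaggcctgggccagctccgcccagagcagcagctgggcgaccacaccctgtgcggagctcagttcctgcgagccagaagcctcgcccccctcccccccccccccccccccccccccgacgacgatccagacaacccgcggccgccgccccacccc
Slc25a36, higher in the Prdm14 line, has 1 match to the Blimp1 letters, and Slc19a2, also higher there, has 1 to each. Slc27a2, higher in the Blimp1 line, has 1 match to the AP-2 letters, and Slc25a24, also higher there, has none in this window. RefSeq windows were found for 10 of the 12 genes, 20 windows in all. The AP-2 letters occurred in windows of Slc19a2, Slc27a2, Slc29a1 and Slc43a1 and the Blimp1 letters in those of Slc19a2, Slc25a36 and Slc29a1. Of all 32851 windows of this length 13.726% held the AP-2 letters and 19.351% the Blimp1 letters, against 21.656% and 18.471% of 157 windows of 115 members. The Prdm14 motif GGTCTCTAA was in 0.24% of all windows and in 0 of the members' windows. No match of 1 motif overlapped a match of another. A match is a run of letters and not a measured binding site, and no match says only that the letters are not in this window.

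Before doxycycline the lines did not differ by a call. For the EpiLCs of the 3-factor, Blimp1, Prdm14 and Tfap2c lines against those of the parental line, limma called 0 members each, with 14, 16, 16 and 13 at an unadjusted p under 0.05. Of all genes 0.0143%, 0.0785%, 0.0357% and 0.0285% were called. The test of whether the stage change itself differed from that of the parental line called 5 members for the 3-factor line (6.93% of all genes), 4 for the Blimp1 line (2.4%) and 5 for the Prdm14 line (4.53%). For the Tfap2c line limma called 0 members (0% of all genes), with 11 members at an unadjusted p under 0.05.

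The stage changes of Slc25a36, Slc29a1 and Slc25a4 lay above the parental ones in the 3-factor line (by 1.23, 1.13 and 1.13) and the Prdm14 line (by 1.08, 1.13 and 1.22). In the parental line itself these genes changed by -0.185, -0.41 and 0.465, so the first and second did not rise there. Slc25a10 (-1.03) and Slc25a24 (-1.03) were called lower in the 3-factor line. In the Blimp1 line Slc6a15 (-2.29), Slc1a3 (-1.25), Slc19a2 (-1.12) and Slc16a10 (-1.07) were called lower. In the Prdm14 line Slc40a1 was called lower (-1.97) and Slc7a1 higher (1.20). The change of Slc7a1 in the Blimp1 line, -1.15, just missed the adjusted p (0.0521).

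Carriers that the symbol pattern does not take were read from a separate list, of which 40 genes were on the array and 36 were tested. It holds the organic anion carriers named Slco, the rest of the family SLC35, the mitochondrial pyruvate carrier and a few others. In the parental stage change and in the Tfap2c line 0 of the 36 were called. In the 3-factor line Slco4c1, an organic anion carrier, rose by 3.83, from a group mean of 2.91, which is below the filter level, to 6.74, and it rose by 1.09 in the Blimp1 line and 1.49 in the Prdm14 line. A change measured from near background is approximate in size. Mpc1, a subunit of the mitochondrial pyruvate carrier (1.03), and Mfsd12 (1.05) also rose in the 3-factor line, and Slc35d3 (-1.15) and Slc35f1 (-1.39) fell. In the Blimp1 line Slco4a1 rose (1.17) and Slc35d3 fell (-1.10). In the Prdm14 line Slco5a1 (-1.11) and Slc35f1 (-1.38) fell. Slco5a1 went from 4.575 in the parental line to 3.465, below the filter level, and Slc35f1 from 5.54 to 4.16, so these sizes are approximate too. Of the 36, 3 were called higher and 2 lower in the 3-factor line, against 2.77% and 3.85% of all genes. The Blimp1 line gave 2 and 1, against 1.38% and 1.19%, and the Prdm14 line 1 and 2, against 2.18% and 3.2%.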

How the data were processed

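RNA was measured on arrays of biotin-labelled cRNA, per the labels' protocols, and both arrays of a group are described as biological duplicates. The deposited values are log2 signals, 1 per probe set and array, from 0 to 13.83. Base 2 was inferred from the range. How the authors normalized them is not given in the sources used. The members and lists were chosen with earlier results of these data known.

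By platform annotation, 34945 probe sets had 1 gene, 932 several and 9160 none, and 64 control probe sets were left out. Symbols and identifiers of all 151 members matched the RefSeq gene table of GRCm38.p6. Probe sets were kept if any group mean reached the 40th percentile of all values, 3.95, and the brightest per gene was tested (14011 genes). A model of 10 group means over all 20 arrays was fitted with limma 3.58.1 in R 4.3.3, and tables were made in Python 3.11.15 with pandas 2.3.3. P values are two-sided. The script was tested on simulated data.

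The genes named are the 8 largest called changes in each direction for the stage change and the day 1 lines against the parental line, 4 for other contrasts, the members nearest the level of 6, the widest range per class and called carriers outside the symbol pattern. Values of every array are given for the 3 largest per direction in those 5 contrasts. Other names (the amino acid carriers, the members shared by 3 lines and the remaining genes that separate the Prdm14 and Blimp1 lines) were chosen after their values were seen. Alternatives were another filter, another scaling, the mean of all probe sets, only the arrays compared, the replicate number as a block, array weights, a test against a log2 change of 0.5, no limit on size and leaving out each array. The stage change within each line was added after seeing the data. Replicate numbers were checked for pairing by the correlation of deviations from the group means.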

Additional observations from a re-analysis of the deposited data

Results flagged for a closer look

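These results stood out because the test of the difference itself showed that a line's stage change was unlike that of the parental line. In the 3-factor line the stage change of Slc25a36 exceeded the parental one by 1.23, that of Slc25a4 by 1.13 and that of Slc29a1 by 1.13, and Slc25a10 (-1.03) and Slc25a24 (-1.03) differed downward. In the Blimp1 line Slc6a15 differed by -2.29, Slc1a3 by -1.25, Slc19a2 by -1.12 and Slc16a10 by -1.07. In the Prdm14 line Slc25a4 differed by 1.22, Slc7a1 by 1.20, Slc29a1 by 1.13, Slc25a36 by 1.08 and Slc40a1 by -1.97.

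All of these share the parental arrays. The calls of Slc25a36 and Slc25a4 in the 3-factor line, Slc6a15 in the Blimp1 line and Slc25a4 and Slc40a1 in the Prdm14 line were kept under all 17 alternative settings other than dropping the limit on size. Those that ended most often were Slc7a1 in the Prdm14 line (9 of 17), Slc25a24 in the 3-factor line (6 of 17) and Slc16a10 in the Blimp1 line (6 of 17). Groups of 2 arrays are too small to test for an outlying array.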

How the results depend on the processing

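No called member changed sign under any alternative. The balance of directions at any size turned under quantile normalization, from 42 higher and 28 lower to 32 and 41 for the parental stage change and from 19 and 26 to 26 and 21 in the Prdm14 line. With the mean of all probe sets 3 members each were called in the Blimp1 and Prdm14 lines and, for the difference in stage change, 3 in the 3-factor and 2 in the Blimp1 line. Tested against a log2 change of 0.5, the counts were 3 in the Blimp1 line, 3, 2 and 3 for the difference in stage change of the 3-factor, Blimp1 and Prdm14 lines, and 1 between the 3-factor and Prdm14 lines. With no limit on size, 70 members passed for the parental stage change (34.5% of all genes). In the 3-factor, Blimp1 and Prdm14 lines 53, 40 and 45 passed (27.4%, 17.2% and 23.9% of all genes). In the EpiLCs of the 3-factor line 1 passed (0.0571%). For the difference in stage change 31, 27 and 23 passed (18.7%, 8.66% and 12.1%). The 3-factor line had 65 and 12 against the Blimp1 and Prdm14 lines (28.1% and 6.17%). Between the Prdm14 and Blimp1 lines 64 passed (29.2%). Within the 3-factor, Blimp1, Prdm14 and Tfap2c lines the stage change gave 75, 82, 68 and 65 (41%, 42.1%, 35% and 32.8% of all genes). Among the genes at the members' level these last shares were 51%, 53%, 44.3% and 42.3%. With only the arrays compared, 2 were called in the Blimp1 line and 0 between the 3-factor and Prdm14 lines (12 at an adjusted p under 0.05 in the fit of all arrays). The level of 6 set the number of members, which was 192 at a level of 5 and 102 at 7.

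Leaving out 1 array gave 9 to 17 calls for the parental stage change, 3 to 6, 4 to 6, 6 and 0 in the 3-factor, Blimp1, Prdm14 and Tfap2c lines on day 1, and 0 in all EpiLC comparisons. It gave 3 to 7, 3 to 5, 5 to 7 and 0 for the difference in stage change of the 3-factor, Blimp1, Prdm14 and Tfap2c lines, and 7 to 9, 1 to 3 and 12 to 14 for the 3-factor against the Blimp1, the 3-factor against the Prdm14 and the Prdm14 against the Blimp1 line. Within the lines the stage change gave 10 to 15, 19 to 23, 12 to 15 and 10 to 12. The 6 came without replicate 1 of the parental day 1 arrays, the 3 for the 3-factor line's stage change without replicate 2 of its EpiLCs, replicate 2 of the parental day 1 arrays or replicate 1 of the parental EpiLCs, and the 1 without replicate 2 of the Prdm14 line on day 1; a lone array was taken to have the spread of the other groups. The cause of these moves was not tested.

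The replicate numbers did not pair the samples: over 45 pairs of groups the correlation of deviations ran from -0.0653 to 0.195, with a median of 0.0237. With the replicate number as a block, the parental stage change kept 12 calls, the 3-factor, Blimp1 and Prdm14 lines 3, 6 and 5, and the 3-factor line had 8 against the Blimp1 line. Depth does not apply to arrays; low signal limits members near 6 and those below it in some groups.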
